A study of Mus musculus with 8 samples.

Results

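Oxidative phosphorylation subunits are the proteins of the 4 respiratory chain complexes and of the ATP synthase. The genes were taken from the array's annotation by symbol (Nduf with a, b, c, s or v and a digit; Sdha to Sdhd; Uqcr; Cox4 to Cox8; Atp5), keeping probe sets annotated to 1 symbol only. This gave 81 of 18193 genes, read by 164 of 34945 such probe sets, of which 35 belong to complex I, 4 to complex II, 8 to complex III, 17 to complex IV and 17 to complex V, the ATP synthase. Expression had been measured in 8 mammary tumour samples of female MMTV-PyMT mice (FVB/N-Tg(MMTV-PyVT)634Mul/J), 4 after vehicle and 4 after SKI-606 (bosutinib), dosed by oral gavage at 100 mg/kg, formulated in methocellulose with Tween. All mice carried the transgene, in which the mouse mammary tumour virus promoter drives the polyoma middle T antigen in mammary epithelium, so the tumours of both groups share this driver. Age, length of treatment and what the vehicle held are not stated in the labels. SKI-606 inhibits the Src and Abl tyrosine kinases, and the study asked, by its title, about tumour differentiation under the drug.

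Complex I passes electrons from NADH, and complex II from succinate, to ubiquinone. Complex III hands them to cytochrome c and complex IV to oxygen, and complexes I, III and IV pump the protons that drive ATP synthesis in complex V. A few subunits are encoded by mitochondrial DNA and were not analysed here, whereas all 81 genes are nuclear. Promoters of nuclear subunit genes are known for sites of nuclear respiratory factor 1 (NRF1) and of the ETS factor GABP. Several subunits of complex IV come in more than one form, a general one and one restricted to tissues such as heart, skeletal muscle, brown fat, lung or testis.

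In 71 of the 81 genes (87.7%) the mean was lower in the SKI-606 than in the vehicle samples, by a median log2 fold change of -0.22, while 52.9% of all genes lay below 0 and their median was -0.02. The differences were small, and 0 of the 81 genes passed limma's test at an adjusted p under 0.05, as did 0 of all 18193 genes (0%). At an unadjusted p under 0.05, limma placed 8 of the 81 lower (9.88%) and 1 higher (1.23%), where the shares over all genes were 4.31% and 6.07%. The 4 SKI-606 values all lay below the 4 vehicle values in 5 genes (6.17%, against 2.03% of all genes) and all above in 1 (1.23%, against 2.39%). Fold changes are SKI-606 minus vehicle ± SE, from n = 4 in each group, on a log2 scale after 16 is added to each signal, so that those of dim genes are understated. In bulk tumour RNA, fewer cells with many mitochondria and less of these RNAs per cell cannot be told apart. Of the 81 genes, 77 had a mean signal of at least 50 over the 8 samples, 69 of them below 0 (89.6%, against 56.7% of all genes that bright), and Ndufb4, Cox4i2, Cox7b2 and Cox7c were dimmer than that. Of the 164 probe sets 141 lay below 0 (86.0%), against 53.7% of all probe sets.

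**Figure D1:**
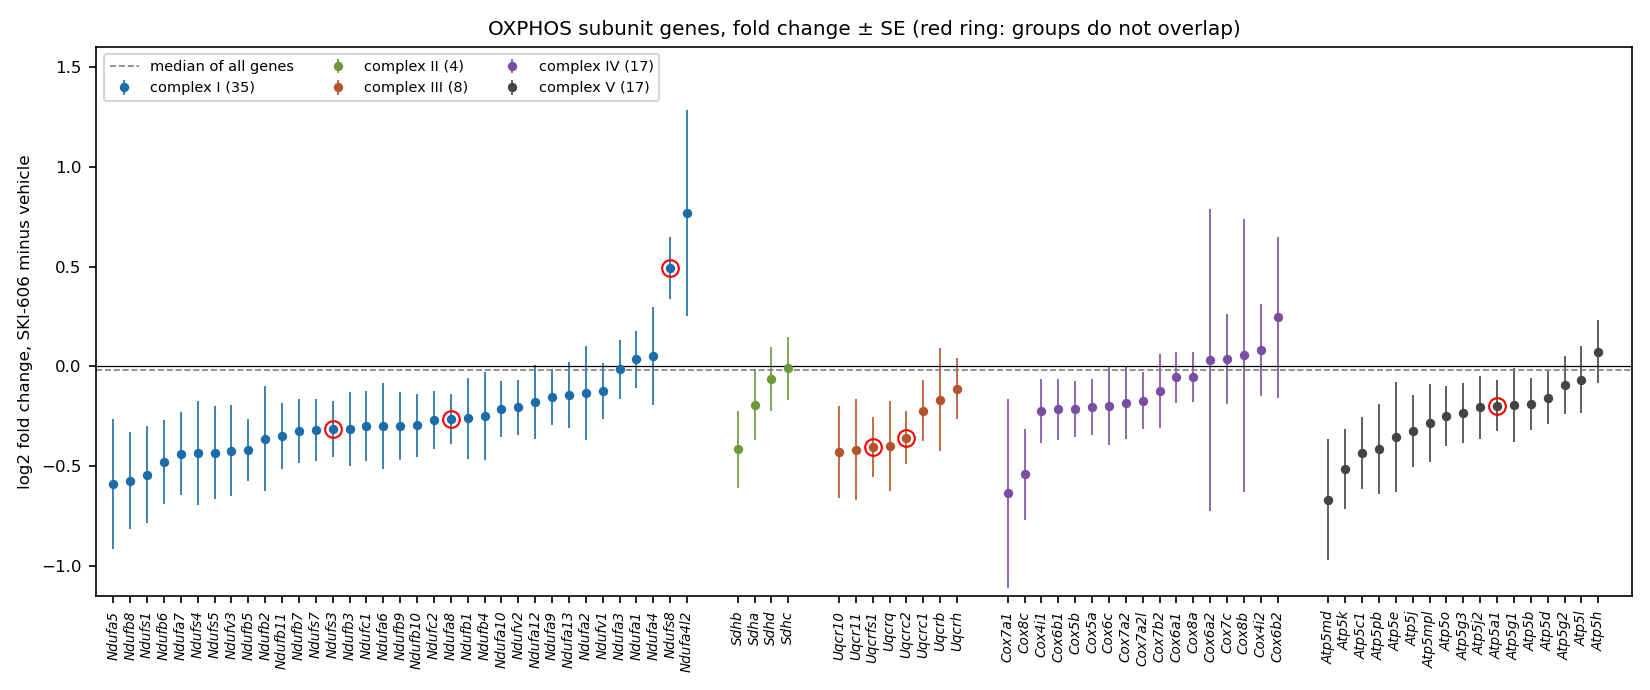
Log2 fold change, SKI-606 minus vehicle, with its SE (n = 4 in each group) for the 81 genes, ordered within each complex; the dashed line is the median of all genes, -0.02, and red rings mark the 6 genes whose groups do not overlap. Most points lie between 0 and -0.67, and 10 lie above 0, among them Ndufs8 and Ndufa4l2 of complex I.

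The median and the counts depended on few samples. The 8 lower genes at an unadjusted p under 0.05 became 3 when vehicle sample 3 was left out (3.19% of all genes were then lower) and 5 when vehicle sample 4 was (3.9%). Leaving out SKI-606 sample 1, 2, 3 or 4 gave 1, 15, 17 and 0 such genes, where the shares of all genes were 3.03%, 6.74%, 6.07% and 2.35%, so the background moved with the members' counts. SKI-606 samples 1 and 4 and vehicle sample 3 stand apart from the rest by high signals of squamous keratinocyte genes (mean log2 levels of 9.45, 9.47 and 9.30, against 5.36 to 6.40 in the other 5 samples). Without these 3 samples 54 of the 81 genes lay below 0, with a median of -0.06. Of all genes 49.4% then lay below 0, with a median of 0.003. Among the members 1 gene was lower and 0 higher at an unadjusted p under 0.05 (1.87% and 2.06% of all genes). This kept vehicle samples 1, 2 and 4 and SKI-606 samples 2 and 3. The samples left out were also extremes of the members themselves, in opposite directions. The median deviation of the brighter members from their mean was 0.20 in vehicle sample 3. It was -0.22 and -0.33 in SKI-606 samples 1 and 4. The part of squamous content in the shift was not tested. Taken on log2 ratios as deposited, where the median of all genes moved to 0.16, 53 members and 35.9% of all genes lay below 0, the median of the members was -0.09, and 0 members were lower or higher at an unadjusted p under 0.05 (1.63% and 5.6% of all genes). The distance between the members' median and that of all genes was thus -0.26 on that scale and -0.21 on the main one, while it was -0.07 without the 3 samples. Leaving out vehicle sample 1 and SKI-606 sample 2, which have high skeletal muscle signals, placed 75 genes below 0 (52.7% of all genes). At an unadjusted p under 0.05, 10 were then lower (5.83%) and 2 higher (7.41%). The members' median was -0.33 in that setting, and its distance from the median of all genes -0.30. With the mean of all probe sets of a gene, 73 lay below 0 (52.3% of all genes), 12 were lower (3.77%) and 0 higher (5.5%).

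SKI-606 sample 4 was the lowest of the 8 samples in 47 of the 77 genes of at least 50 signal units (61%), and SKI-606 sample 1 in 20 of them (26%). Over all genes of that brightness the same samples were lowest in 20.4% and 24.4%. At the upper end stood vehicle samples 4 and 3, the highest in 29 (37.7%) and 21 (27.3%) of the 77, against 15.9% and 13.9% of all such genes. SKI-606 samples 2 and 3 were close to the middle, with median deviations from the mean over the 8 samples of 0.02 and 0.04, against -0.22 and -0.33 in SKI-606 samples 1 and 4.

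The mean log2 level of the complex I genes was 10.19, 10.15, 10.35 and 10.35 across the vehicle group (samples 1 to 4, in this order throughout) and 9.93, 10.15, 10.19 and 9.82 across the SKI-606 group. SKI-606 samples 1 and 4 lay under all vehicle samples, and the other two SKI-606 samples lay within the vehicle range. Complex III had levels of 11.29, 11.10, 11.33 and 11.42 in the vehicle and 10.85, 11.09, 11.19 and 10.76 in the SKI-606 samples, and complex V 11.50, 11.45, 11.61 and 11.65 against 11.16, 11.49, 11.45 and 11.04. In both of these the 2 low samples were again SKI-606 samples 1 and 4. Complex IV was spread differently, with 9.28, 8.96, 9.19 and 9.34 in vehicle and 9.03, 9.32, 9.10 and 8.78 in SKI-606 samples, so that SKI-606 sample 2 stood above 3 of the vehicle samples.

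**Figure D2:**
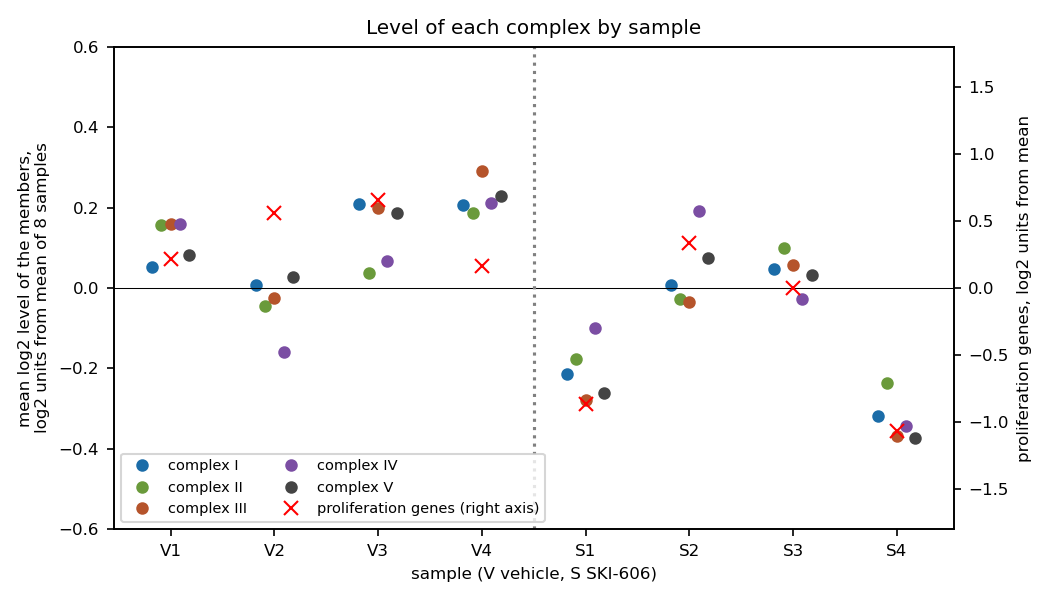
Mean log2 level of the members of each complex in each sample, as the difference from its mean over the 8 samples (left axis), and the same for 10 proliferation genes (right axis, wider scale). SKI-606 samples 1 and 4 are the lowest for complexes I, II, III and V, and the lowest for the proliferation genes.

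Other measures moved between the same samples. All 10 proliferation genes had lower means in SKI-606 samples, with a median of -0.82, and their mean level was 7.16 and 6.96 in SKI-606 samples 1 and 4 against 8.03 to 8.69 in the other 6. Fibroblast genes (10 of 10 measured, levels of 9.43 to 9.88 in vehicle and 9.87 to 11.05 in SKI-606 samples) and macrophage genes (8 of 8, levels of 8.87 to 9.79 and 9.48 to 10.71) were highest in SKI-606 samples 1 and 4, with no marker at 0 in any sample. Endothelial genes (8 of 8 above 0, levels of 6.18 to 6.94 and 6.74 to 7.61) were also highest in these samples. T cell genes (7 of 7 above 0) had levels of 4.44 to 5.10 in vehicle and 5.30 to 5.57 in SKI-606 samples, none with a mean signal of 50. For Actb, the control signal near the 3' end divided by that near the 5' end, a sign of RNA integrity, gave 1.77, 2.83, 3.83 and 3.78 in vehicle and 1.66, 2.08, 3.35 and 2.62 in SKI-606 samples. For Gapdh the same ratio spread less, from 0.80 in SKI-606 sample 1 to 1.06 in vehicle sample 4. Luminal epithelial genes, which mark the labelled tissue, had a mean signal of at least 50 in 10 of 10 cases, with levels of 10.65 to 10.96 in vehicle and 10.56 to 11.02 in SKI-606 samples. The part of cell makeup, proliferation and RNA integrity in the subunit values was not tested.

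Of the 6 genes whose groups did not overlap, 4 were found in the promoter table of RefSeq (GRCm38.p6). The 250 bases before their start sites are shown by that rule, although the gap between the groups was narrow in Ndufs3 and Uqcrfs1. In Ndufs8 only the brightest probe set separated the groups. Capitals mark a match, on either strand, to the NRF1 motif (GCGC, any 2 bases, GCGC), the ETS motif CCGGAAG or the motif TCAAGGTCA of estrogen-related receptors. The first is Ndufs3 (chr2:90904722-90904971, minus strand), the second Ndufa8 (chr2:36049339-36049588, minus strand), the third Uqcrfs1 (chr13:30545317-30545566, minus strand) and the last Ndufs8 (chr19:3912775-3913024, minus strand).
Ndufs3: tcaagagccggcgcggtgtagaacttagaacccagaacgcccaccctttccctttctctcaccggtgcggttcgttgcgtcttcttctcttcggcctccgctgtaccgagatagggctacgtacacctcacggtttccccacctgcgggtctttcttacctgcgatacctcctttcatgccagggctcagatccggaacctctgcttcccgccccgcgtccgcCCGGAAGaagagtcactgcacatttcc
Ndufa8: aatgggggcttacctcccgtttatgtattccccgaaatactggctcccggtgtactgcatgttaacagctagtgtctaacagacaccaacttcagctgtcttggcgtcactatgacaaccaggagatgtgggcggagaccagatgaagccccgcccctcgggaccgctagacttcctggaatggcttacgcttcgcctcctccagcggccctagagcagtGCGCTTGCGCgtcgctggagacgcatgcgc
Uqcrfs1: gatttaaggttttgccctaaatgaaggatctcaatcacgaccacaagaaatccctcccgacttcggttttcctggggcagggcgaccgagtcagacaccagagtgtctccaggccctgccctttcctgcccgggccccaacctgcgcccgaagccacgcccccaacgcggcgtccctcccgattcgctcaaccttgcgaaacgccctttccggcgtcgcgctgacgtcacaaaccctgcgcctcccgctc
Ndufs8: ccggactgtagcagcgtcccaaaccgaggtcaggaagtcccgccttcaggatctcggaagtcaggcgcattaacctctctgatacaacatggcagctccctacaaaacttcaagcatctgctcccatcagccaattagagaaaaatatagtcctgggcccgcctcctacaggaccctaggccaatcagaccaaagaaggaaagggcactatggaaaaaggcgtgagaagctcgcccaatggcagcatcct
The capitals in Ndufs3 are an ETS match and those in Ndufa8 an NRF1 match, and these letters were not found in the windows of Uqcrfs1 and Ndufs8.

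The same 250-base windows were read for the 66 of 81 members that the promoter table lists, with 71 start sites. The NRF1 motif was present before 13 of these 71 start sites (18.3%), against 4.98% of all 32851 in the table. The ETS motif was present before 12 (16.9%), against 6.91%. For the receptor motif there was 1 match (1.41%, against 0.387%), too few to compare the shares. The 3 motifs were searched one by one on both strands, none contains another, and a match describes letters, not a site.

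Complex I genes had a median log2 fold change of -0.30, with 31 of 35 below 0. At an unadjusted p under 0.05 in limma, 3 were lower (8.57%, against 4.31% of all genes) and 1 higher (2.86%, against 6.07%). Among the 6 core subunits measured, which carry the flavin and the iron-sulfur clusters or hold them in place, 5 lay below 0 with a median of -0.26, and among the 29 accessory subunits 26 did, with a median of -0.30. Ndufb5, an accessory subunit of the membrane arm, had signals of 2187, 2411, 2381 and 1893 with vehicle and 1503, 1975, 1726 and 1440 with SKI-606. The only SKI-606 value within the vehicle range was that of sample 2, and the fold change was -0.42 ± 0.15 (limma, adjusted p = 0.565). Ndufs3, a core subunit of the peripheral arm, read 1171, 1388, 1494 and 1151 in vehicle and 1030, 1069, 1133 and 932 in SKI-606 samples. Ndufa8, an accessory subunit of the membrane arm, read 1521, 1581, 1594 and 1652 in vehicle and 1334, 1416, 1392 and 1149 in SKI-606 samples. In both genes every SKI-606 value lay below every vehicle value, with fold changes of -0.31 ± 0.14 and -0.26 ± 0.13 (limma, adjusted p = 0.599 and 0.616). Ndufb8 and Ndufb6, 2 further membrane arm subunits, stood at -0.57 ± 0.24 and -0.48 ± 0.21. Ndufb8 had 2547, 1943, 2662 and 3580 signal units in vehicle against 1894, 1726, 2392 and 1222 in SKI-606 samples. The groups overlapped in Ndufb8, as vehicle sample 2 was lower than SKI-606 sample 3. Ndufa5 of the peripheral arm, looked at after its values were known, stood at -0.59 ± 0.33 and rested on values of 298 and 444.5 in SKI-606 samples 1 and 4, against 976.0 in SKI-606 sample 2. Its direction turned, to 0.083 ± 0.24, when the 3 samples of high squamous signals were left out.

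Ndufs8, a core subunit that binds iron-sulfur clusters, went the other way. Its brightest probe set, which stands for the gene, read 2604, 2895, 2737 and 3014 in vehicle and 5101, 3324, 3891 and 3722 in SKI-606 samples. Every SKI-606 value lay above every vehicle value, and the fold change was 0.49 ± 0.16 (limma, adjusted p = 0.558). The other 5 probe sets of Ndufs8 lay below 0, at -0.22 ± 0.17, -0.20 ± 0.19, -0.11 ± 0.20, -0.15 ± 0.18 and -0.09 ± 0.20, and their groups overlapped. In the second brightest, the values were 2659, 2494, 2840 and 3656 in vehicle and 2600, 2324, 2993 and 2056 in SKI-606 samples. With the mean over the 6 probe sets the fold change of Ndufs8 was -0.04, so that the direction given for this gene hangs on 1 probe set.

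**Figure D3:**
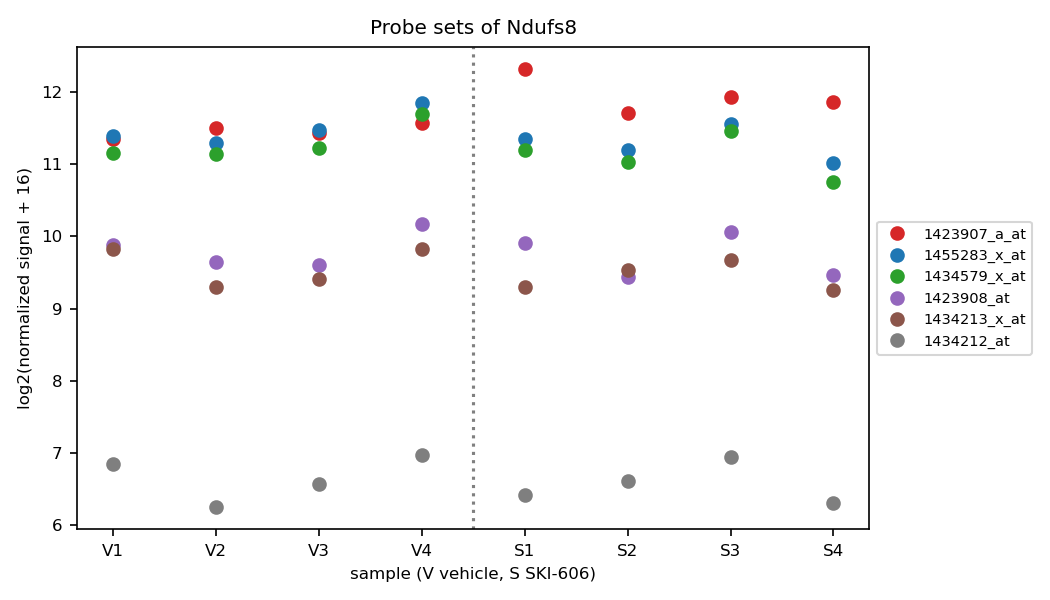
Log2(normalized signal + 16) of the 6 probe sets of Ndufs8 in the 4 vehicle (V) and 4 SKI-606 (S) samples. Only the brightest probe set, in red, has all SKI-606 values above all vehicle values.

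Ndufa4l2, a paralogue of Ndufa4 known as a hypoxia-inducible gene, had a fold change of 0.77 ± 0.52 (limma, adjusted p = 0.716), from dim signals. It was the widest of the 81 genes with 16 added to the signals, but with 64 added it was 0.42, behind Atp5md at -0.64. Without the 3 samples of high squamous signals it was 0.46, behind Cox8b at 1.02, Ndufb4 at -0.69 and Cox6b2 at -0.57. Without vehicle sample 1 and SKI-606 sample 2, of high muscle signals, it was 1.35 ± 0.49, again the widest of the 81. Ndufa4l2 read 48.8, 18.5, 73.3 and 6.25 in vehicle and 117, 16.5, 63.3 and 92.4 in SKI-606 samples. The 3 highest values were those of SKI-606 samples 1 and 4 and vehicle sample 3, the samples of high squamous signals, and the groups overlapped. Ndufa4, whose product is now counted to complex IV, stood at 0.05 ± 0.25, and Ndufa1, a small membrane subunit, at 0.04 ± 0.14.

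The 4 complex II genes lay between -0.42 and -0.01, with a median of -0.13. Sdhb, the iron-sulfur subunit, read 2600, 2123, 2635 and 3437 in vehicle and 2054, 1738, 2582 and 1699 in SKI-606 samples, and 3 SKI-606 values lay below all vehicle values. Its fold change was -0.42 ± 0.19 (limma, adjusted p = 0.607). Sdha, the flavoprotein that oxidises succinate, stood at -0.19 ± 0.18, and Sdhd and Sdhc, the membrane anchors, at -0.06 ± 0.16 and -0.01 ± 0.16. A second, dimmer probe set stood at -0.27 ± 0.12 for Sdhd, with non-overlapping groups, and at -0.22 ± 0.17 for Sdhc. Sdhc, named to complete the complex, stood at 0.11 without the muscle samples (vehicle sample 1 and SKI-606 sample 2). With log2 ratios as deposited, the median of complex II was 0.11, against 0.16 for all genes.

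Complex III had the lowest median of the 5 complexes, -0.38, and 8 of 8 genes lay below 0. Uqcrc2, a core protein, read 1661, 1438, 1580 and 1778 in vehicle and 1194, 1203, 1416 and 1213 in SKI-606 samples. Uqcrfs1, the Rieske iron-sulfur protein, read 2006, 1614, 1892 and 1848 in vehicle and 1307, 1602, 1518 and 1152 in SKI-606 samples. The groups of both genes did not overlap, although the gap was narrow: 1416 against 1438 for Uqcrc2 and 1602 against 1614 for Uqcrfs1. The fold changes were -0.36 ± 0.13 and -0.40 ± 0.15 (limma, adjusted p = 0.565 for each). A second probe set of Uqcrc2 stood at -0.52 ± 0.18, with overlapping groups. Uqcr10, a small subunit, had the widest fold change of the complex, -0.43 ± 0.23, with 1360, 1622, 1904 and 2270 in vehicle and 1093, 1773, 1515 and 979 in SKI-606 samples. Cyc1, the cytochrome c1 gene of the same complex, is outside the symbol rule, was looked at after its values were known, and stood at -0.37 ± 0.16, from 1798 ± 125 in vehicle to 1400.5 ± 237 with SKI-606 (SD, n = 4 each). Without the 3 samples of high squamous signals 6 of the 8 genes lay below 0 and the median was -0.14.

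In complex IV, the general forms and the restricted forms differed in their spread. The 10 general genes lay between -0.22 and 0.04, 9 of them below 0, with a median of -0.19. Cox4i1 stood at -0.22 ± 0.16, Cox5a and Cox5b, which bind near the catalytic core, at -0.20 ± 0.14 and -0.21 ± 0.14, and Cox6b1 at -0.22 ± 0.15. The second brightest probe set of Cox5b stood at -0.33 ± 0.13, with non-overlapping groups, while the groups overlapped in its other probe sets. Cox8a, a small membrane subunit, read 1940, 2010, 1795 and 1905 in vehicle and 1899, 1908, 1975 and 1609 in SKI-606 samples. Its fold change was -0.05 ± 0.13, as was that of Cox6a1. Cox7c, the exception above 0, was dim, with a signal of 24.5 ± 3.08 under vehicle and 27.1 ± 13.96 under SKI-606 (SD, n = 4 each). This lay below the brightness of 50 used here, as did its other probe set, at a mean signal of 15. Whether these probe sets read the gene well was not tested.

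The 7 restricted forms ranged from -0.64 to 0.25, with a median of 0.03. Cox6a2, the heart and muscle form of subunit 6a, read 305, 13.4, 46.5 and 43.3 in vehicle and 91.9, 203, 23.0 and 25.4 in SKI-606 samples. Cox8b, a muscle and brown fat form of subunit 8, read 150, 44.3, 59.3 and 113 in vehicle and 50.9, 426, 93.1 and 18.9 in SKI-606 samples. Both were high in vehicle sample 1 and SKI-606 sample 2. These are also the samples with the highest levels of 12 skeletal muscle genes, 10.19 and 9.73, against 4.78 to 8.61 in the other 6. The level of brown adipocyte genes was 6.43 in SKI-606 sample 2, against 4.99 to 5.47 in the other samples. Of the 5 brown adipocyte genes measured, 1 had a mean signal of at least 50. The group differences of Cox6a2 and Cox8b were small beside their spread, with fold changes of 0.03 ± 0.76 and 0.06 ± 0.68 (limma, adjusted p = 0.995 and 0.989). The pooled within-group SD on the log2 scale was 1.33 for Cox6a2 and 1.20 for Cox8b, against 0.11 for Cox6a1 and 0.10 for Cox8a.

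Cox7a1, the muscle and brown fat form of subunit 7a, did not follow the order of the muscle genes. It read 276, 198, 328 and 652 in vehicle and 200, 252, 428 and 79.8 in SKI-606 samples, highest in vehicle sample 4, where the muscle level was 5.50. Adipocyte genes had a level of 7.80 in that sample, second to 8.16 in SKI-606 sample 2, where Cox7a1 was 252, and the second highest value of Cox7a1, 428 in SKI-606 sample 3, came with an adipocyte level of 6.27. The fold change of Cox7a1 was -0.64 ± 0.47 (limma, adjusted p = 0.742) and that of the general form Cox7a2 was -0.18 ± 0.18. Without the 3 samples of high squamous signals Cox7a1 stood at -0.0076. The part of muscle or fat tissue in these values was not tested. Without vehicle sample 1 and SKI-606 sample 2, Cox8b stood at -0.40.

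**Figure D4:**
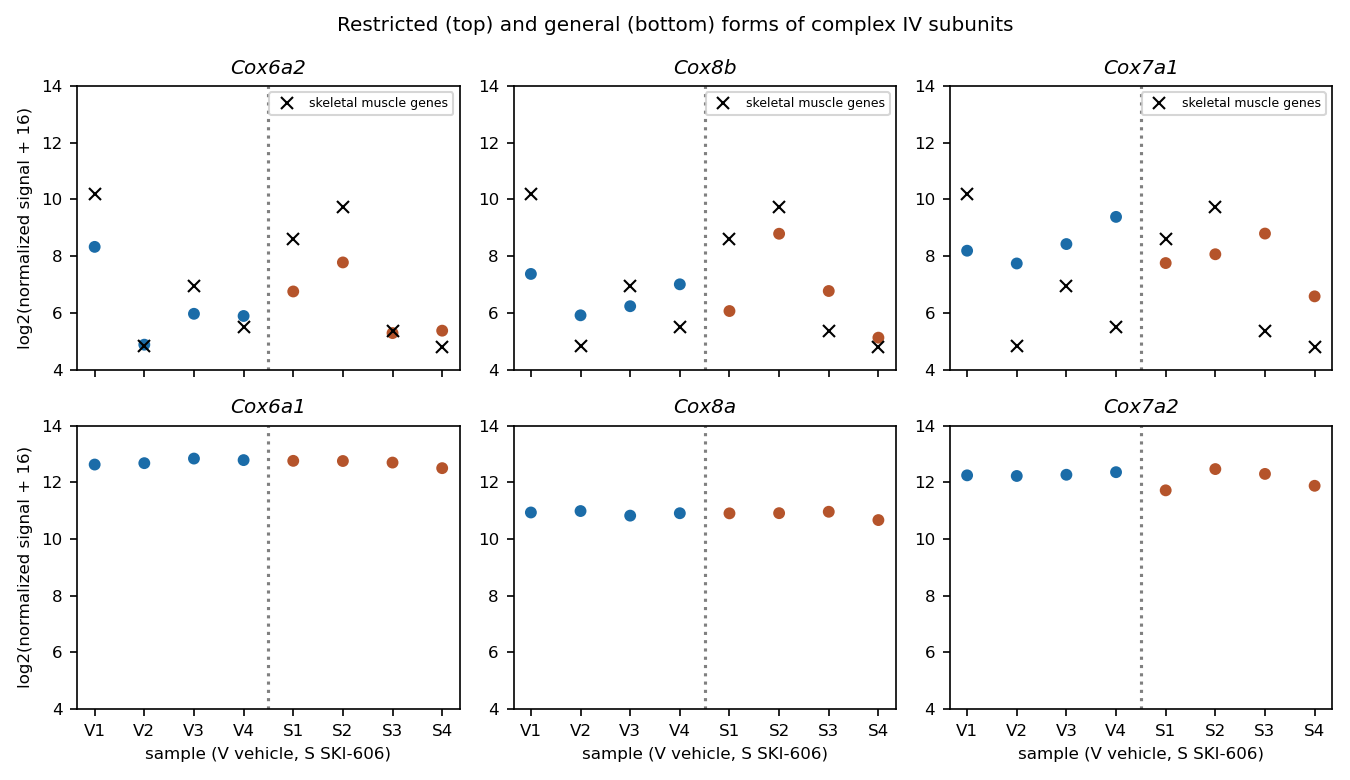
Log2(normalized signal + 16) of 3 restricted forms (top row) and the general forms of the same subunits (bottom row) in the 4 vehicle (V, blue) and 4 SKI-606 (S, orange) samples; crosses give the mean log2 level of 12 skeletal muscle genes. Cox6a2 and Cox8b are high in V1 and S2, where the muscle level is 10.19 and 9.73, while Cox7a1 is highest in V4.

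The remaining restricted forms had mean signals below or just above 50. Cox4i2, known as a lung and hypoxia form, stood at 0.08 ± 0.23, and Cox6b2, a testis form, at 0.25 ± 0.40, with its high values of 92.1, 88.8 and 85.0 in vehicle sample 4 and SKI-606 samples 1 and 4. Cox8c, another testis form, stood at -0.54 ± 0.23 (limma, adjusted p = 0.584), from 68.7 ± 22.8 in vehicle to 41.3 ± 10.7 with SKI-606 (SD, n = 4 each), while its other probe set, at a mean signal of 14.4, stood at 0.34 ± 0.24. Cox7b2 had signals of at most 10.1 in any sample.

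Of the 17 complex V genes 16 lay below 0, with a median of -0.23. The 5 genes of the catalytic F1 part lay between -0.43 and -0.16. Atp5a1, its alpha subunit, read 3917, 3867, 3736 and 3530 in vehicle and 3428, 3345, 3521 and 2860 in SKI-606 samples. The groups did not overlap, by 3521 against 3530, and the fold change was -0.20 ± 0.13 (limma, adjusted p = 0.707). Atp5c1, the gamma subunit of the rotor, read 4648, 3819, 4964 and 6207 in vehicle and 3538, 3525, 4313 and 3042 in SKI-606 samples, and 3 of the SKI-606 values lay below all vehicle values. It stood at -0.43 ± 0.18 (limma, adjusted p = 0.583). The 3 genes of the membrane c ring lay between -0.23 and -0.09, and of the 4 genes of the peripheral stalk 3 lay below 0, Atp5h being the exception at 0.07 ± 0.16.

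Among the 5 small membrane subunits of complex V, the median was -0.28. Atp5k, the e subunit, which takes part in dimer formation, read 2502, 2288, 3048 and 3345 in vehicle and 1628, 2486, 2226 and 1552 in SKI-606 samples. SKI-606 sample 2 lay within the vehicle range, and the fold change was -0.51 ± 0.20 (limma, adjusted p = 0.573). Its other 2 probe sets stood at -0.47 ± 0.20 and -0.45 ± 0.25. Atp5md had a fold change of -0.67 ± 0.30 (limma, adjusted p = 0.599; -0.25 without the 3 samples of high squamous signals), from 1640, 951, 1548 and 2288 in vehicle to 691, 1275, 1299 and 741 in SKI-606 samples, where vehicle sample 2 lay below SKI-606 samples 2 and 3.

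Genes that build or feed the chain lay on the same side, and 0 of them passed limma's test at an adjusted p under 0.05. Of 43 assembly factors 40 lay below 0, with a median of -0.25, and 5 were lower (11.6%, against 4.31% of all genes) and 0 higher at an unadjusted p under 0.05. Atpaf1, which assembles the F1 part, stood at -0.46 ± 0.18 and Cox15, of heme A synthesis, at -0.47 ± 0.18. Of 14 electron carrier and quinone synthesis genes 14 lay below 0, with a median of -0.39, and 6 were lower at an unadjusted p under 0.05 (42.9%, against 4.31%). This list includes Cyc1, the complex III gene given above, and Ndufab1, an Nduf gene that the symbol rule leaves out. Both were among the 6, so the list is not separate from the subunits. Coq3 and Coq7, enzymes of ubiquinone synthesis, had non-overlapping groups and stood at -0.75 ± 0.17 and -0.53 ± 0.14 (limma, adjusted p = 0.519 and 0.522), from 266 ± 51.6 to 151 ± 18.1 and from 448 ± 33.4 to 305 ± 37.5 signal units (SD, n = 4 each). Of 17 pyruvate dehydrogenase and citric acid cycle genes 16 lay below 0, with a median of -0.30, among them Fh1 (fumarase) at -0.38 ± 0.15 and Suclg1 at -0.30 ± 0.13.

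Mitochondrial ribosomal protein genes, whose products translate the mitochondrially encoded subunits, lay below 0 in 75 of 76 cases, with a median of -0.35 and 21 lower at an unadjusted p under 0.05 (27.6%, against 4.31% of all genes). Mrpl54 and Mrpl57 stood at -0.74 ± 0.18 and -0.64 ± 0.19 (limma, adjusted p = 0.519 and 0.539). Among 14 regulators of mitochondrial biogenesis 11 lay below 0, with a median of -0.18. At an unadjusted p under 0.05, 1 gene was lower (7.14%, against 4.31% of all genes). This was Tfb1m, a methyltransferase of the mitochondrial ribosome, at -0.72 ± 0.19, with non-overlapping groups, and Ssbp1, of mitochondrial DNA replication, followed at -0.53 ± 0.26. Of 15 glycolysis genes 9 lay below 0 and the median was -0.03, close to the -0.02 of all genes, with Pdk1, which restrains pyruvate dehydrogenase, at -0.54 ± 0.25 and Tpi1 at -0.19 ± 0.16. Without the 3 samples of high squamous signals the medians were -0.09 for assembly factors, -0.19 for carriers and quinone synthesis, -0.04 for the citric acid cycle, -0.13 for ribosomal proteins and -0.04 for regulators. With log2 ratios as deposited they were 0.006, -0.16, -0.07, -0.11 and 0.08, in the same order, against 0.16 for all genes. Most of the calls at an unadjusted p under 0.05 were lost as well. Without the 3 samples 0 of 43 assembly factors, 2 of 14 carrier and quinone genes, 0 of 17 citric acid cycle genes, 1 of 76 ribosomal protein genes and 0 of 14 regulators were lower (1.87% of all genes). On the ratios 0 genes of these 5 lists were lower (1.63% of all genes), and 21 of 43 assembly factors lay below 0.

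**Figure D5:**
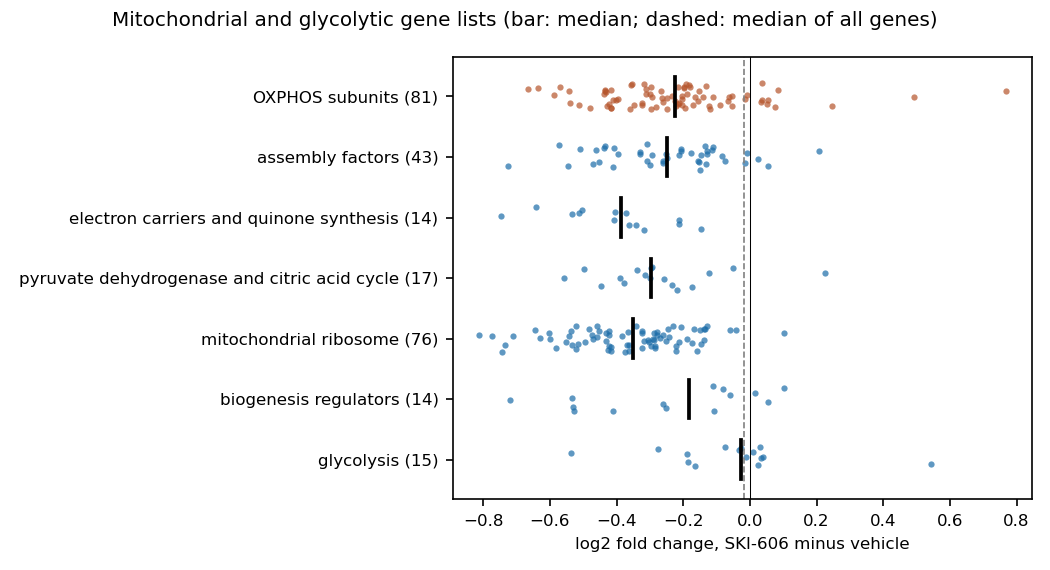
Log2 fold change, SKI-606 minus vehicle (n = 4 in each group), of each gene of the subunit set and of 6 further lists, with the number of genes in parentheses; vertical bars are medians and the dashed line is the median of all genes. The medians run from -0.39 for electron carriers and quinone synthesis to -0.03 for glycolysis.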

How the data were processed

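RNA of 8 tumour samples was read on 1 Affymetrix array each. The authors deposited linear ratios, and the software behind them is not given in the sources used here. Signals before division by array and probe medians were recovered as the smallest whole numbers giving those ratios, for all 45101 probe sets. That they gave back the ratios, within a relative 0.0001, follows from this choice and does not test the scale. Of 5000 simulated probe sets, 99.6% were recovered exactly. The recovered array medians were 15 to 23. After quantile normalization, 16 was added and log2 taken. limma 3.58.1 (R 4.3.3; lmFit, eBayes) was fitted to 45037 probe sets, without 64 controls, with Benjamini-Hochberg adjustment at 0.05. The planned test was for signals, and the deposited unit was a ratio. A gene is its probe set of highest mean among those with 1 symbol. The labels do not tie samples to named animals. The p-values thus reflect only the spread among the 8 samples, which may differ from that among animals. Samples of the same group differed in tissue content, with skeletal muscle levels of 4.82 to 10.19 in vehicle. Members and lists were chosen with earlier results of these data known, and subgroups within complexes after their values were seen. Named were, per complex, the 3 members of smallest p in each direction, the widest, members with non-overlapping groups and isoform pairs, and 2 genes per pathway list. In all, 18 alternatives were run. The scripts were tested on simulated data. Promoters are from RefSeq.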

Additional observations from a re-analysis of the deposited data

Results flagged for a closer look

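Uqcrc2 in SKI-606 sample 3 stood apart from the other 3 SKI-606 samples, with a log2 value of 10.48 against 10.24 to 10.26. The gap was 0.91 of the group's range, above the 95% critical value of Dixon's test for 4 samples. This was 1 of 82 groups of 4 values examined, and chance flags about 5% of groups.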

How the results depend on the processing

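0 genes passed an adjusted p of 0.05 in limma under any of the 18 alternatives, and the lowest adjusted p of the subunit genes ran from 0.343 to 0.9999 over them. The squamous and muscle sample sets were chosen with earlier results of these data known. Lower genes at an unadjusted p under 0.05 (8) numbered 0 with pseudocount 1 (2.54% of all genes), 17 with pseudocount 64 (5% of all genes), 0 on the deposited ratios (1.63%) and 1 without the 3 squamous samples (1.87%). Higher genes (1) numbered 0 with pseudocount 1 (4.14% of all genes), trimmed-mean scaling (5.38%), deposited ratios (5.6%), the mean of all probe sets (5.5%) or without the squamous samples (2.06%), and 2 without the muscle samples (7.41%). Leaving out 1 sample gave 0 to 17 lower and 1 to 2 higher genes. The shares of all genes then ran from 2.35% to 6.74% lower and from 3.63% to 8% higher. The replicate block gave 3 lower genes (4.39% of all genes) and the same median. Same-numbered samples correlated at -0.02, 0.19, -0.41 and -0.20, and 0 of 8 correlated best with their own number. These values showed no pairing by number, but so few cannot exclude one.

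Medians on the ratios were -0.10 for complex I, 0.11 for II, -0.17 for III, -0.078 for IV and -0.093 for V. Without the squamous samples they were -0.063 over all subunits, -0.075 for complex I, -0.016 for II, -0.14 for III, -0.0073 for IV and -0.063 for V. Of 843 values for the 47 genes named by rule, 44 reversed, in 15 genes; Ndufa5, Sdhc and Cyc1 lie outside that tally. With pseudocount 1 Cox8b was -0.042, and with 64 Cox6a2 was -0.016. Trimmed-mean scaling gave Atp5h -0.078, Cox7c -0.040 and Ndufa1 -0.036. Ratios gave Cox8a 0.15, Sdha 0.044 and Sdhd 0.19. The mean of all probe sets gave Cox7c -0.063 and Ndufs8 -0.044. Array weights gave Cox6a2 -0.27, Cox8b -0.17 and Ndufa4 -0.032. Without the squamous samples Cox4i2 was -0.17, Cox6a1 0.029, Cox6b2 -0.57, Cox7a2 0.11, Cox7b2 0.13 and Sdha 0.11. Without the muscle samples Atp5h was -0.082, Cox7c -0.11, Cox8b -0.40, Ndufa1 -0.079 and Ndufa4 -0.085. Leaving out 1 sample spanned -0.025 to 0.14 for Atp5h, -0.054 to 0.23 for Cox4i2, -0.089 to 0.0041 for Cox6a1, -0.46 to 0.72 for Cox6a2, -0.15 to 0.24 for Cox7c, -0.086 to 0.012 for Cox8a, -0.65 to 0.58 for Cox8b, -0.043 to 0.12 for Ndufa1, -0.15 to 0.23 for Ndufa4 and -0.16 to 0.0071 for Sdhd. The cause was not tested. Precision is limited by 4 arrays in each group and by 4 genes below 50 signal units.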

Other observations

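Probe sets of one gene mostly lay on one side. Of the 134 subunit probe sets with a mean signal of at least 50, 122 (91.0%) lay below 0. In 34 of the 40 genes with at least 2 such probe sets all had one sign, and the median range between them was 0.08 on the log2 scale. The exceptions were Atp5d, Atp5h, Cox6a1, Ndufa3, Ndufs8 and Uqcrh.

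Subunit genes with and without a promoter motif had like fold changes. The 12 genes with the NRF1 motif had a median of -0.23, with 11 below 0, and the 54 without it -0.24, with 48 below 0. For the ETS motif the medians were -0.26 in 12 genes and -0.24 in 54.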
